A study of Oryctolagus cuniculus with 20 samples.

Results

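Macrophages that meet dying cells, lipoproteins and debris take up lipid, carry it inside the cell, sense it and digest it, and 5 genes of that route are described here across rabbit vessels. They are FABP5, NR1H3, SCARB1, LRP1 and GRN, 5 of the 23669 genes in the deposited table. They were chosen by name for what they are known to do, but with earlier results of these data known. The number of them called is therefore not independent of those results. Each symbol matched a single gene. In the study a piece of common carotid artery of the rabbit (Oryctolagus cuniculus) was moved into a vein, and total RNA was sequenced from the transplanted artery 14 or 30 days after surgery (graft day 14 and graft day 30). The opposite carotid artery, which was not operated on, was collected on the same days (control day 14 and control day 30). External jugular vein without surgery was the last of the 5 groups, and each group has 4 libraries, 20 in all. No strain, age, sex or genetic change is given in the labels, and every library, controls and veins included, carries the treatment word transplatation and the cell line name HASMC beside labels of rabbit tissue. Replicates are labelled biological but no label says that they come from separate animals, so p-values measure the spread between these samples.

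FABP5 is a small carrier that moves fatty acids through the cytosol of macrophages and other cells. NR1H3, the liver X receptor alpha, is a nuclear receptor that binds oxidised cholesterol and switches on genes of cholesterol export. SCARB1 is the class B scavenger receptor for high-density lipoprotein, and LRP1 is a large endocytic receptor that smooth muscle cells and fibroblasts express as well as macrophages. GRN encodes progranulin, a secreted protein that is also delivered to lysosomes and cut there into granulins. None of the 5 is made by macrophages alone, and in bulk tissue fewer cells of a type and less RNA per cell cannot be told apart.

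Values are FPKM, fragments counted per length of transcript and relative to all fragments mapped, so the reads behind a value are unknown. The summed FPKM of a library ran from 327806 to 671582, and the highest sums were those of graft day 14 replicates 1 and 2. Between 6759 and 7740 genes per library reached 1 FPKM. The libraries of control day 14 were nearly alike: for 1265 genes averaging at least 30 FPKM the typical (median) SD on the log2 scale was 0.0733 there, and it was 0.135 in vein, 0.189 in grafts and 0.198 in controls of day 30 and 0.324 in grafts of day 14. In the other 4 groups 1 library each lay close to a weighted mean of the other 3: graft day 14 replicate 3, control day 30 replicate 2, graft day 30 replicate 4 and vein replicate 4, with median absolute log2 differences of 0.0762, 0.0840, 0.0818 and 0.0745. Such libraries may not be independent, so calls of named genes that end without these 4 mixture-like libraries, or with control day 14 counted as 1 sample, or with both sample changes, are given with the gene or in the same paragraph. Data were also simulated with the spread of each group and 200 of 8657 genes changed. There 70 of 230 calls at day 14 and 43 of 200 at day 30 were false. Such shares depend on how many genes change. In the real data 53.5% and 37.6% of genes were called on these days, so the shares do not carry over. With unequal spread, adjusted p-values near the threshold still carry less weight than they state.

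Markers of macrophages moved with the grafts. Counts of genes called in this list and those below are to be read against all genes, of which 36.5% were higher and 17.0% lower at day 14, and 26.0% and 11.6% at day 30. Of 16 marker genes 15 were found and 8 were high enough to test, and 7 of these rose on each day, or 4 and 6 with both sample changes (median log2 change 2.99 at day 14 and 2.23 at day 30, where the median of all genes was 0.26 and 0.18). Their summed level was 14.7 to 17.9 FPKM in controls and 269 to 605 in grafts of day 14, 19.6 to 41.1 in controls and 205 to 402 in grafts of day 30, and 51.6 to 118 in vein. CD68, a lysosomal protein used here as a macrophage marker, was listed at 0 in every control and vein library. It was at 53.3, 45.7, 132 and 146 FPKM in graft day 14 and 10.5, 112, 111 and 82.7 FPKM in graft day 30. AIF1 was also listed at 0 in every control and vein library, and ITGAX and LAPTM5 in all 20 libraries. Such zeros, those of CD68 included, may reflect estimates that failed. Of 7 smooth muscle markers tested, 6 fell on each day, with 1 higher at day 30. Endothelial markers rose in 4 of 6 at day 14 and 5 of 6 at day 30, or 3 of 6 on each day with both sample changes, and T cell markers in 4 of 4 on each day, or 2 of 4 at day 14 with both sample changes. How much of any change below comes from a different mix of cells was not tested.

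**Figure D1:**
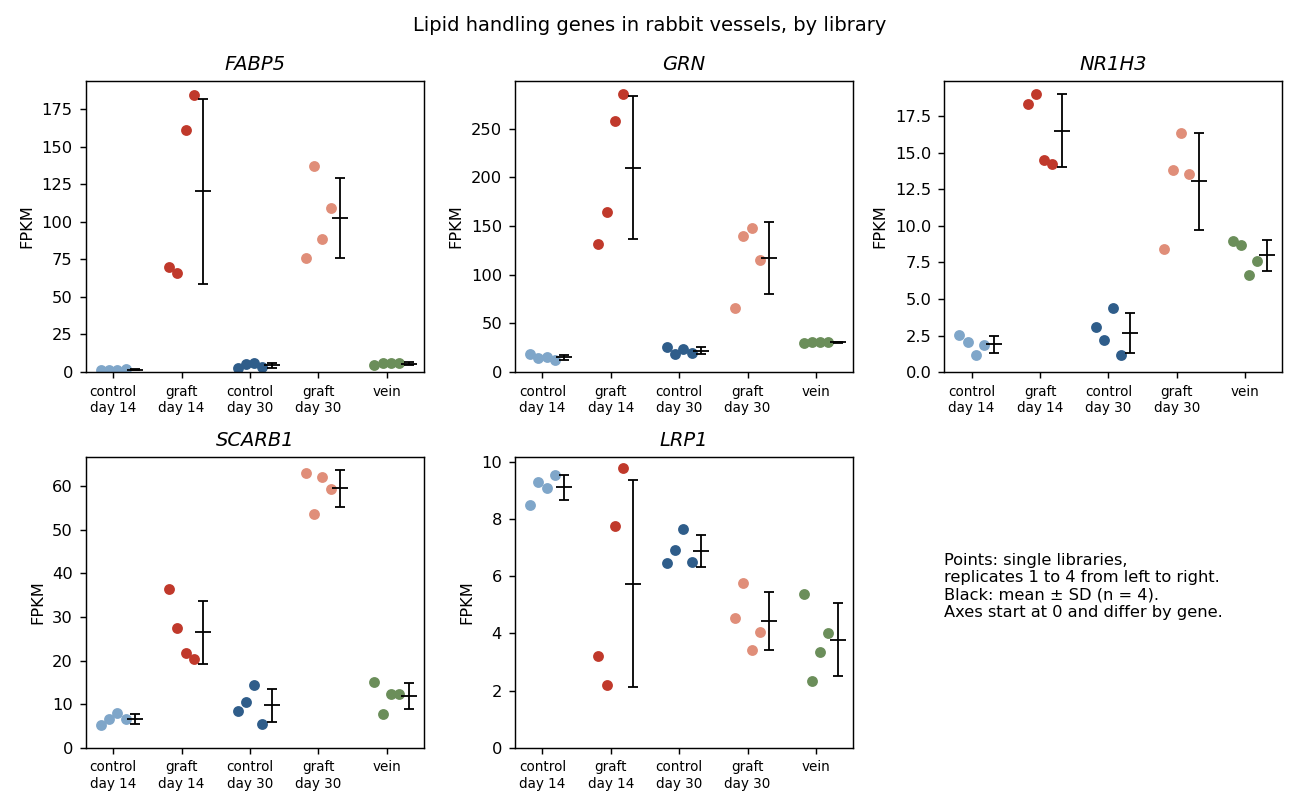
FPKM of FABP5, NR1H3, SCARB1, LRP1 and GRN in each of the 20 libraries, in 5 panels with their own linear axes starting at 0; points are libraries and black bars are the mean ± SD of each group. FABP5, NR1H3, SCARB1 and GRN lie above the controls in all 8 grafts, while the 4 grafts of day 14 spread from 2.20 to 9.79 FPKM for LRP1.

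Grafts held more RNA of FABP5, NR1H3, SCARB1 and GRN than the opposite artery on both days, and LRP1 lay lower on average. At day 14 the test called 5 of the 5 genes, 4 higher and 1 lower, where 53.5% of the 8657 genes tested were called, 36.5% higher and 17.0% lower. At day 30 it called 4 of the 5, all higher, where 37.6% of genes were called, 26.0% higher and 11.6% lower. In 4 of the 5 genes at day 14 and in 5 of the 5 at day 30 the grafts did not overlap the controls, against 50.1% and 34.5% of all genes. The test was limma on log2(FPKM + 1), with Benjamini-Hochberg adjustment across the genes tested and a threshold of 0.05, and changes on this scale understate those of low genes. The balance of higher and lower genes depends on scaling: quantile normalization gave 2192 higher and 2280 lower genes at day 14 in place of 3161 and 1473, and 1482 and 1690 at day 30 in place of 2253 and 1000. It moved the median log2 change of all genes from 0.26 to -0.02 and from 0.18 to -0.06, and under it all 4 rises and the fall of LRP1 were called on both days.

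Between days few of the 5 genes were called. In grafts of day 30 against day 14 the test called 2 of the 5, SCARB1 higher and GRN lower, where 16.3% of genes were called, 8.01% higher and 8.31% lower. The graft's difference from its control changed between days for 1 of the 5, GRN, where 12.9% of genes were called, 5.38% higher and 7.57% lower. In controls of day 30 against day 14 limma called 0 of the 5 with adjusted p from 0.0523 to 0.501, where 10.7% of genes were called. The splits of these calls also moved with scaling: TPM scaling gave 750 higher and 78 lower genes between the grafts in place of 693 and 719, and 846 and 137 between the controls in place of 544 and 385. For the change of the difference, median-of-ratios scaling gave 601 higher and 524 lower genes in place of 466 and 655.

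Vein lay between artery and graft for most of the genes. Against the mean of both control groups the test called 4 of the 5 in vein, where 37.1% of genes were called: FABP5, NR1H3 and GRN were higher and LRP1 was lower. Graft day 14 was above vein in 4 of the 5, where 43.3% of genes were called, 25.9% higher and 17.5% lower. Graft day 30 was above vein in 3 of the 5, where 33.4% were called, 19.2% higher and 14.2% lower. Here too the split moved: median-of-ratios scaling gave 1616 higher and 1526 lower genes for vein against controls in place of 2178 and 1036. TPM scaling gave 1093 and 1979 for graft day 14 against vein in place of 2239 and 1511, and quantile normalization gave 1269 and 1798 for graft day 30 against vein in place of 1664 and 1230. The comparisons share groups, so they are not independent of each other.

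**Figure D2:**
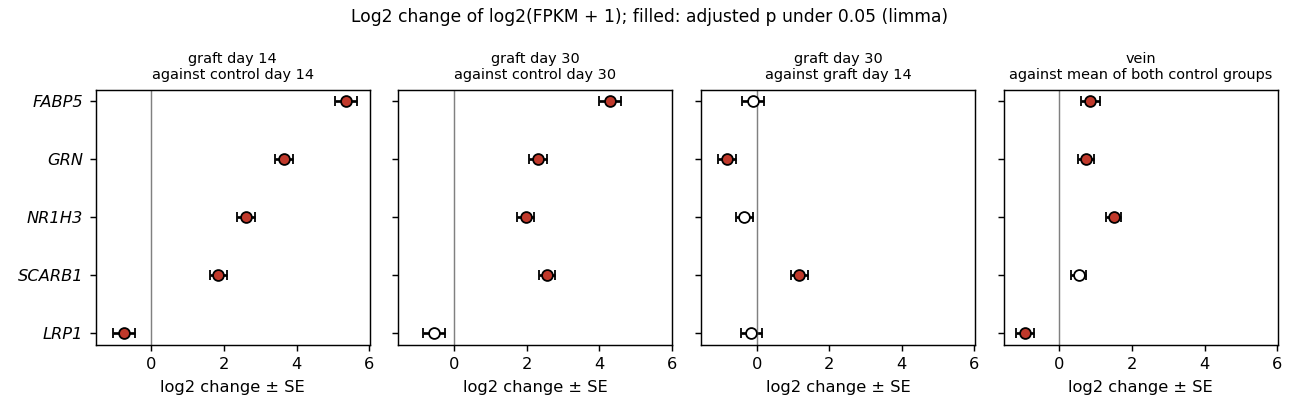
Log2 change with its standard error of the 5 genes in 4 comparisons (grafts against controls on each day, grafts of day 30 against day 14, and vein against both control groups), on the log2(FPKM + 1) scale; filled points have an adjusted p under 0.05 in limma. FABP5 has the widest graft differences, 5.37 at day 14 and 4.30 at day 30, and LRP1 is the member with negative values against the controls.

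FABP5 (ENSOCUG00000010425), the fatty acid carrier, was nearly silent in the arteries that were not operated on. Control day 14 held 1.58, 1.41, 1.48 and 2.18 FPKM, and control day 30 held 2.59, 5.51, 6.15 and 3.14. Graft day 14 held 69.7, 65.8, 161 and 185 FPKM, and graft day 30 held 76.1, 137, 88.5 and 109. Every graft was above every control, and graft replicates 3 and 4 of day 14 were higher than replicates 1 and 2. Controls and grafts averaged 1.66 ± 0.352 and 120 ± 61.5 FPKM at day 14, and 4.35 ± 1.75 and 103 ± 26.6 FPKM at day 30 (SD, n = 4 each). The log2 change was 5.37 (SE 0.30, adjusted p = 1.87e-10) at day 14 and 4.30 (SE 0.30, adjusted p = 9.66e-09) at day 30, and both calls held under all 36 alternatives. The difference between days did not pass (-1.06, SE 0.43, adjusted p = 0.11). It passed without graft day 14 replicate 1 (-1.27, adjusted p = 0.0494), without replicate 2 (-1.30, adjusted p = 0.041) or without both (-1.73, adjusted p = 0.00172). From day 14 to day 30 FABP5 changed by -0.11 between the grafts (SE 0.30, adjusted p = 0.854) and by 0.95 between the controls (SE 0.30, adjusted p = 0.0523). Every control of day 30 was above every control of day 14, and that control change passed under 12 of 35 alternatives. FABP5 has processed pseudogenes in several mammals, and how reads shared with such copies were assigned is not given in the sources used here.

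The vein held little FABP5, and a part of the macrophage markers. Vein replicates 1 to 4 had 4.66, 5.92, 5.75 and 6.33 FPKM, within the range of control day 30 but for replicate 4, beside summed macrophage markers of 118, 51.6, 95.5 and 107 FPKM. Of 8 macrophage markers tested, 3 were called higher in vein than in controls and 0 lower, where 37.1% of all genes were called in either direction. The count is near that share and is not read as a result about the markers. CD68, AIF1, ITGAX and LAPTM5 were listed at 0 in every vein library. The relation of FABP5 to macrophages in vein was not tested. The vein mean of FABP5, 5.67 ± 0.713 FPKM (SD, n = 4), was 0.85 above both control groups on the log2 scale (SE 0.26, adjusted p = 0.0168). That call ended with control day 14 as 1 sample (adjusted p = 0.097), without the mixture-like libraries (0.0516), with both changes (0.203), without vein replicate 4 (0.0504) and with TPM scaling (0.0507). Grafts were above vein by 4.04 at day 14 (SE 0.30, adjusted p = 1.52e-08) and by 3.93 at day 30 (SE 0.30, adjusted p = 4.8e-08). The order of the means was graft day 14, graft day 30, vein, control day 30 and control day 14, where the 2 graft groups overlapped, and so did vein and control day 30.

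Other fatty acid binding proteins were measured too. Of 8 genes of the family 4 were high enough to test, FABP5 included, and 3 rose on each day, or 2 at day 30 with any of the sample changes. FABP4, the carrier of fat cells and capillary endothelium that macrophages also make, had the highest level of the family, with 22.7 ± 0.837 FPKM in control day 14 and 508 ± 343 in graft day 14 (log2 change 4.12, adjusted p = 1.34e-05). At day 30 it went from 132 ± 116 to 308 ± 70.8 FPKM (1.69, adjusted p = 0.0325, or 0.0605 with control day 14 as 1 sample, 0.0613 without the mixture-like libraries and 0.126 with both changes), and control replicates 2 and 3 held 166 and 280 FPKM against 34.1 and 46.2 in the others. FABP3, the carrier of heart and muscle, rose by 1.20 and 0.87. FABP7 did not pass on either day, at means of 0.253 to 1.07 FPKM, and FABP1, FABP2, FABP6 and PMP2 stayed under the filter.

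NR1H3 (ENSOCUG00000002095), the sterol sensor, rose in the grafts to a level that vein approached. Control day 14 held 2.54, 2.08, 1.14 and 1.86 FPKM, and graft day 14 held 18.3, 19.0, 14.5 and 14.2. Control day 30 held 3.09, 2.16, 4.38 and 1.17 FPKM, and graft day 30 held 8.45, 13.8, 16.4 and 13.6. No graft overlapped a control of its day. The log2 change was 2.60 (SE 0.24, adjusted p = 7.22e-08) at day 14 and 1.97 (SE 0.24, adjusted p = 4.39e-06) at day 30, and both calls held under all 36 alternatives. The difference between days (-0.64, SE 0.34, adjusted p = 0.234) did not pass.

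Among vessels that were not operated on, vein stood apart for NR1H3. It held 8.97, 8.68, 6.67 and 7.63 FPKM, above all 8 controls, a log2 change of 1.50 (SE 0.21, adjusted p = 1.87e-05) that was called under all 35 alternatives. Graft day 14 was above vein by 0.96 (SE 0.24, adjusted p = 0.00352). That call ended with TPM scaling (adjusted p = 0.0717) and with both sample changes (0.0504). Graft day 30 overlapped vein, since its replicate 1 (8.45 FPKM) lay between the vein libraries, and the difference of 0.62 (SE 0.24) gave adjusted p = 0.0568, or 0.0178 without that replicate. The 2 graft groups overlapped, as did the 2 control groups.

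Of 8 genes for liver X receptors, their partners and their corepressors, 3 could be tested, NR1H3 included. NR1H2, the related liver X receptor beta, was listed at 0.64 FPKM or less in every library and was not tested. Such low values may be estimates that failed. RXRB, a retinoid X receptor that pairs with liver X receptors, stood at 9.82 ± 1.17 and 10.0 ± 1.86 FPKM in control and graft at day 14 and did not pass on either day (adjusted p = 0.913 and 0.475). NCOR1, a corepressor, fell by 0.58 at day 14 (adjusted p = 0.00628, or 0.19 with both changes and 0.134 with the merged control of day 14) and gave -0.32 at day 30 (adjusted p = 0.138). Of 16 genes that liver X receptors are known to switch on, 7 could be tested: 4 rose and 1 fell at day 14, and 2 rose and 1 fell at day 30. With both sample changes 3 rose and 1 fell at day 14, and 2 rose and 0 fell at day 30 by limma. The median log2 changes were 2.07 and 0.71. PLTP, which transfers phospholipid between lipoproteins, rose by 2.07 and 1.27.

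Other targets named here moved in both directions, and LPL passed at day 14 alone. MYLIP, a ubiquitin ligase, fell from 169 ± 4.52 to 37.8 ± 26.4 FPKM at day 14 (-2.38, adjusted p = 4.05e-06) and by 1.13 at day 30 (adjusted p = 0.00776, or 0.107 with both sample changes). LPL, lipoprotein lipase, rose by 4.15 at day 14 (adjusted p = 0.000179, or 0.109 with both), and its 1.80 at day 30 did not pass (adjusted p = 0.0738). APOC1, an apolipoprotein, was listed at 0 in all 8 controls and averaged 3.53 ± 1.18 FPKM in graft day 14 and 0.785 ± 0.873 in graft day 30. ABCA1, the cholesterol exporter, stayed at or under 0.97 FPKM in every library and under the filter, values that may be estimates that failed. CYP27A1, which makes an oxysterol and is not in the list of targets, fell by 0.75 and 0.78. The fall of CYP27A1 at day 14 ended with control day 14 as 1 sample (adjusted p = 0.0959) and with both changes (0.253), and that at day 30 with both (0.0586).

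SCARB1 (ENSOCUG00000021601), the receptor for high-density lipoprotein, was the member that stood higher in grafts of day 30 than of day 14. Control day 14 held 5.14, 6.65, 7.88 and 6.62 FPKM, and graft day 14 held 36.4, 27.4, 21.8 and 20.3. Control day 30 held 8.54, 10.6, 14.4 and 5.48 FPKM, and graft day 30 held 63.1, 53.6, 62.1 and 59.5. All 4 grafts of day 30 were above all 4 of day 14, and neither overlapped a control. The log2 change was 1.83 (SE 0.23, adjusted p = 3.44e-06) at day 14 and 2.56 (SE 0.23, adjusted p = 1.71e-07) at day 30, and both calls held under all 36 alternatives. Between the graft groups SCARB1 rose by 1.18 (SE 0.23, adjusted p = 0.00267). That call ended when the mixture-like libraries were dropped (1.10, adjusted p = 0.0525) and with both sample changes (adjusted p = 0.142). The graft's difference from its control did not change between days by the test (0.73, SE 0.33, adjusted p = 0.159), and it passed without control day 30 replicates 2 and 3 (1.11, adjusted p = 0.0347).

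In vein SCARB1 stood at 15.0, 7.85, 12.4 and 12.4 FPKM and overlapped both control groups. The difference of 0.53 from the controls (SE 0.20) did not pass (adjusted p = 0.0506), and without vein replicate 2 it did (0.70, adjusted p = 0.0162). Grafts were above vein by 1.08 at day 14 (SE 0.23, adjusted p = 0.00111) and by 2.26 at day 30 (SE 0.23, adjusted p = 1.38e-06). The order of the means was graft day 30, graft day 14, vein, control day 30 and control day 14, and only vein with control day 30 and the 2 control groups overlapped among neighbours.

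ADIPOQ, the fat cell hormone adiponectin, is 1 of the adipocyte markers and was also among the 5 genes nearest to SCARB1 in pattern, so its likeness to SCARB1 is partly a matter of choice. ADIPOQ was at 19.5, 18.9, 21.0 and 17.6 FPKM in control day 14 and 77.9, 90.1, 50.3 and 46.6 in graft day 14. It was at 9.37, 46.7, 73.1 and 8.43 FPKM in control day 30, 395, 328, 290 and 331 in graft day 30 and 54.0, 15.7, 37.4 and 38.1 in vein. In the grafts of day 14 the 2 replicates with more ADIPOQ also had more SCARB1. The summed adipocyte markers ran the other way there, at 244, 357, 791 and 906 FPKM in replicates 1 to 4. Most of that sum was FABP4, at 166, 266, 740 and 860 FPKM, which macrophages and capillary endothelium also make. The sum is therefore not a measure of fat cells alone. Over the 20 libraries the Pearson r of log2 values was 0.95 with ADIPOQ, 0.85 with the summed adipocyte markers, 0.857 with the summed macrophage markers and 0.657 with the summed endothelial markers. For deviations from the group means it was 0.828, 0.42, 0.335 and 0.706 in the same order, which describes libraries that share preparation and scaling within a group. Of 8 adipocyte markers, 6 were found, and their sum was 41.3 to 43.1 FPKM in controls and 244 to 906 in grafts of day 14, 43.5 to 355 in controls and 534 to 730 in grafts of day 30, and 85.9 to 277 in vein. CIDEC was listed at 0 in all 20 libraries and LIPE at no more than 0.08 FPKM, values that may be estimates that failed. The part of fat cells in the level of SCARB1 was not tested. Control day 30 replicates 2 and 3 held the most adipocyte marker RNA among the controls, with FABP4 at 166 and 280 FPKM. Without them the change of SCARB1 at day 30 was 2.94.

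**Figure D3:**
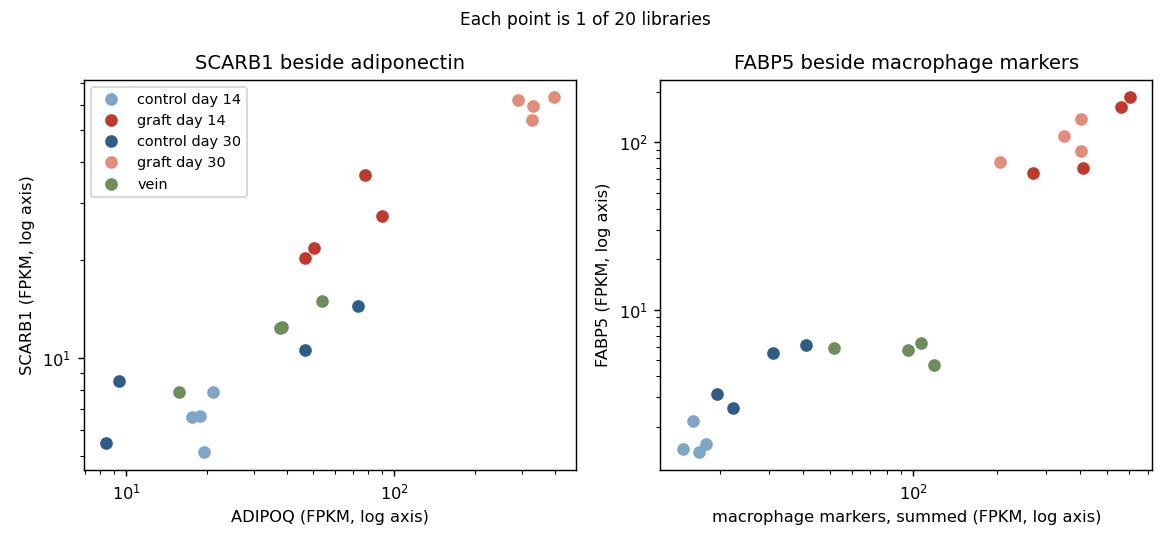
Left, SCARB1 against ADIPOQ; right, FABP5 against the summed macrophage markers; both axes are FPKM on log scales and each point is 1 of 20 libraries, coloured by group. The grafts of day 30 are highest in both ADIPOQ and SCARB1. The 4 veins lie at 51.6 to 118 FPKM of summed macrophage markers and at 4.66 to 6.33 FPKM of FABP5.

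Other receptors for modified or native lipoproteins were measured too. Of 21 such genes 10 could be tested, SCARB1 and LRP1 included: 6 rose and 1 fell at day 14, and 6 rose and 0 fell at day 30 by limma (median log2 change 1.01 and 0.86). With both sample changes 3 rose at day 14 and 4 at day 30. STAB1, a scavenger receptor of macrophages and sinusoidal endothelium, rose by 3.12 and 2.62, and stood at 25.1 ± 4.59 FPKM in vein. MSR1, the class A scavenger receptor, rose by 2.70 and 2.04, and OLR1, the receptor for oxidised LDL, by 1.51 and 0.97. With both sample changes the calls ended for MSR1 at day 14 (adjusted p = 0.0601) and for OLR1 on both days (0.0758 and 0.0581). VLDLR, the receptor for very-low-density lipoprotein, was like SCARB1 in its order of grafts: 2.40 ± 0.502 FPKM at day 14 and 6.84 ± 0.902 at day 30, a change of its graft difference by 0.96 (adjusted p = 0.00264, or 0.426 with both changes and 0.0801 with the merged control of day 14). SCARB2, a class B relative that sits in lysosomes, did not pass (0.52, adjusted p = 0.0604, and 0.28, adjusted p = 0.351). CD36, the other class B receptor for lipid, reached at most 2.89 FPKM in a library and stayed under the filter.

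LRP1 (ENSOCUG00000013184), the endocytic receptor, was the member that was lower in grafts, with values that depend on which grafts are counted. Control day 14 held 8.50, 9.30, 9.08 and 9.52 FPKM, and graft day 14 held 3.21, 2.20, 7.75 and 9.79. Replicates 1 and 2 of the graft were below every control, while replicate 3 was a little below them and replicate 4 was above. The log2 change was -0.76 (SE 0.29, adjusted p = 0.0364). The call ended under 13 of 36 alternatives, with adjusted p from 0.00277 to 0.841. They include control day 14 as 1 sample (adjusted p = 0.301), each control day 14 library left out (0.0539 to 0.0704) and both sample changes (0.293). It also ended without graft replicate 1 (-0.59, adjusted p = 0.118), without replicate 2 (-0.46, adjusted p = 0.148) and without both (-0.05, adjusted p = 0.841). These are the 2 libraries with the highest summed FPKM, of which the 10 highest genes took 29.3% and 32.3%, against 19.0% and 17.9% in replicates 3 and 4.

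At day 30 the groups did not overlap for LRP1. Control day 30 held 6.46, 6.91, 7.66 and 6.51 FPKM, and graft day 30 held 4.52, 5.77, 3.40 and 4.04. The difference of -0.55 (SE 0.29) did not pass in the fit over all 20 libraries (adjusted p = 0.153), whose spread includes that of graft day 14. It passed in a fit of these 2 groups alone (adjusted p = 0.0236), with median-of-ratios scaling (-0.72, adjusted p = 0.0413), and without graft day 14 replicates 1 and 2 (adjusted p = 0.0143). The difference between days was 0.20 (SE 0.41, adjusted p = 0.785). Between the graft groups LRP1 changed by -0.15 (SE 0.29, adjusted p = 0.774), or by -0.86 without graft day 14 replicates 1 and 2 (adjusted p = 0.0062). Control day 14 was above control day 30 in every library, without passing in the fit over all 20 libraries (adjusted p = 0.50). That difference passed in a limma fit of the 2 control groups alone (-0.36, adjusted p = 0.0224).

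Vein held the least LRP1, at 5.39, 2.33, 3.36 and 4.01 FPKM, below all 8 controls. The log2 change against the controls was -0.94 (SE 0.25, adjusted p = 0.00684), a call that ended with control day 14 as 1 sample (adjusted p = 0.0601) and with both sample changes (0.155). Grafts of neither day differed from vein by the test (0.36, adjusted p = 0.34, and 0.21, adjusted p = 0.625). The day 14 result rested on the same graft libraries. Graft day 14 was above vein without its replicate 2 (0.66, adjusted p = 0.0458) and without replicates 1 and 2 (1.07, adjusted p = 0.000505). It was also above vein with library weights (0.84, adjusted p = 3.62e-05). Control day 30, graft day 14, graft day 30 and vein each overlapped the next in the order of the means.

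Ligands and partners of LRP1 were called in both directions. Of 15 genes 8 could be tested: 6 rose and 2 fell at day 14, and 4 rose and 2 fell at day 30 (median log2 change 1.52 and 0.97). With control day 14 as 1 sample or both changes 4 rose and 2 fell at day 14. PLAU, the urokinase protease, rose from 22.3 ± 1.01 to 68.5 ± 2.96 FPKM at day 14 and by 1.89 at day 30. PLAUR, its receptor, rose by 4.14 and 1.93. TFPI, an inhibitor of coagulation and a known ligand, fell by 1.07 and 1.25. PDGFRB, a growth factor receptor that LRP1 binds in smooth muscle, rose by 1.47 and 0.99, and its ligand PDGFB by 1.73 and 1.36.

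GRN (ENSOCUG00000013567), progranulin, had the highest level of the 5 genes and a graft difference that was smaller at day 30. It is the member with 2 transcripts in the table, which were summed. Control day 14 held 18.6, 14.7, 15.1 and 12.3 FPKM, and graft day 14 held 132, 164, 258 and 285. Control day 30 held 25.6, 19.0, 23.8 and 19.3 FPKM, and graft day 30 held 65.7, 140, 148 and 116. Grafts were above controls throughout, with replicate 1 of day 30 the lowest graft. The log2 change was 3.65 (SE 0.24, adjusted p = 1.51e-09) at day 14 and 2.31 (SE 0.24, adjusted p = 8.45e-07) at day 30, and both calls held under all 36 alternatives.

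The graft difference of GRN was smaller at day 30 by 1.33 (SE 0.34, adjusted p = 0.0166), and between the graft groups it fell by 0.83 (SE 0.24, adjusted p = 0.028), although they overlapped. The first of these calls ended under several alternatives, among them control day 14 as 1 sample (adjusted p = 0.211), omission of the mixture-like libraries (0.0959), both changes (0.575) and TPM scaling (0.0943). The second ended without graft day 14 replicate 3 (0.0872) or 4 (0.0886), without graft day 30 replicate 1 (0.0992) or 4 (0.0536). It also ended with control day 14 as 1 sample (0.054), without the mixture-like libraries (0.185), with both changes (0.319), with TPM scaling (0.291), with quantile normalization (0.0587) and in a fit of only the groups compared (0.193). The macrophage markers of the same graft, CD68 at 10.5 FPKM and their sum at 205 FPKM, were also lowest in graft day 30 replicate 1, and the part of macrophage number in this was not tested.

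Vein held 30.1 to 31.3 FPKM of GRN (mean 30.7 ± 0.577, SD, n = 4), above all 8 controls by 0.73 on the log2 scale (SE 0.21, adjusted p = 0.0107). That call ended with control day 14 as 1 sample (adjusted p = 0.068), without the mixture-like libraries (0.0569), with both changes (0.205) and with TPM scaling (0.0733). Grafts were above vein by 2.66 at day 14 (SE 0.24, adjusted p = 1.35e-07) and by 1.83 at day 30 (SE 0.24, adjusted p = 1.72e-05). In the order of the means, graft day 14, graft day 30, vein, control day 30 and control day 14, the 2 graft groups were the neighbours that overlapped.

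Genes around progranulin moved in both directions. Of 20 genes of its route and its lysosomal partners 13 could be tested, GRN included, and 6 rose and 2 fell on each day (median log2 change 0.70 and 0.90). With both sample changes 5 rose and 1 fell on each day. Those that fell were both membrane proteins that bind or regulate progranulin: SORT1, sortilin, which takes it up (-1.01 and -0.56), and TMEM106B, a lysosomal membrane protein (-0.59 and -0.48). The fall of TMEM106B at day 14 ended with control day 14 as 1 sample (adjusted p = 0.0745) and with both changes (0.102), and that at day 30 with both (0.0678). Several lysosomal enzymes rose, with CTSB, cathepsin B, going from 102 ± 7.62 to 1128 ± 656 FPKM at day 14 and rising by 2.12 at day 30, CTSS, cathepsin S, by 4.05 and 3.77, and HEXA, a hexosaminidase, by 2.47 and 2.07. GPNMB, a glycoprotein of lipid-laden macrophages, rose from 7.88 ± 0.247 to 225 ± 150 FPKM at day 14 and from 10.6 ± 3.48 to 396 ± 228 at day 30. TFEB, the transcription factor of lysosome genes, did not pass (adjusted p = 0.698 and 0.37). PSAP, the partner that carries progranulin to lysosomes, was listed at 0.74 FPKM or less in every library, values that may be estimates that failed.

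**Figure D4:**
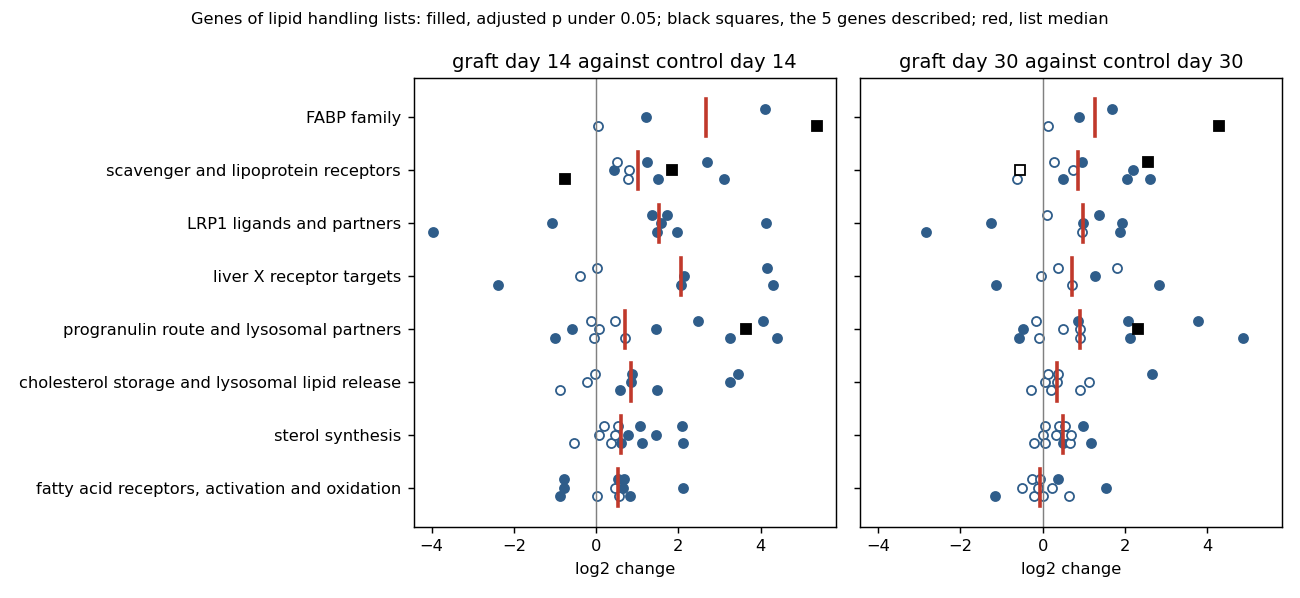
Log2 change at day 14 (left) and day 30 (right) of every tested gene in lists of fatty acid binding and handling, uptake, LRP1 ligands, liver X receptor targets, lysosome, storage and sterol synthesis genes; filled points have an adjusted p under 0.05 in limma, black squares are FABP5, SCARB1, LRP1 and GRN and red marks are list medians. Storage genes have a median of 0.85 at day 14 and 0.34 at day 30, and sterol synthesis genes 0.61 and 0.50.

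Genes for storage and breakdown of cholesterol ester were looked at as well. Of 18 genes 9 could be tested, and 6 rose at day 14 against 1 at day 30, while 0 fell on either day by limma (median log2 change 0.85 and 0.34). All genes were also called less at day 30 (26.0% higher against 36.5%), and no test of the list's difference between days was made. The count at day 14 was 3 with control day 14 as 1 sample or without the mixture-like libraries and 1 with both changes. LIPA, the lysosomal acid lipase, rose by 3.44 and 2.66 and was the gene called at day 30. PLIN2, the coat of lipid droplets, rose from 8.10 ± 1.16 to 130 ± 115 FPKM at day 14, and its change at day 30 was 0.91 (adjusted p = 0.183). NCEH1, a cholesterol ester hydrolase, rose by 0.85 at day 14 and gave 0.14 at day 30 (adjusted p = 0.52). The change of the graft difference between days passed for PLIN2 (-2.34, adjusted p = 0.0419) and NCEH1 (-0.71, adjusted p = 0.0326). Neither passed under a sample change: adjusted p was 0.34 and 0.297 with control day 14 as 1 sample, 0.213 and 0.13 without the mixture-like libraries, and 0.713 and 0.637 with both. With both, the rises at day 14 ended too for PLIN2 (0.0597) and NCEH1 (0.0857). SOAT1, which makes cholesterol ester, rose by 0.87 at day 14 (adjusted p = 0.0117), a call that ended with control day 14 as 1 sample (0.193), without the mixture-like libraries (0.0799) and with both (0.413). Of 22 sterol synthesis genes 13 could be tested: 7 rose at day 14 and 3 at day 30, with NSDHL at 2.10 and 1.18. With control day 14 as 1 sample 2 rose on each day, without the mixture-like libraries 4 and 1, and with both changes 1 on each day. Of 19 genes of fatty acid receptors, activation and oxidation 11 could be tested. At day 14 5 rose and 3 fell, and at day 30 2 rose and 1 fell, with ACADM, an enzyme of fatty acid oxidation, lower by 0.88 and 1.17. With both sample changes 0 rose and 0 fell at day 14 by limma, and 0 rose and 1 fell at day 30, and ACADM gave adjusted p = 0.115 at day 14.

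Over the 20 libraries FABP5, NR1H3, SCARB1 and GRN rose and fell together, which their shared difference between grafts and other vessels gives by itself. Pearson's r of log2(FPKM + 1) was 0.967 for FABP5 with GRN, and between 0.788 and 0.895 for the other pairs of these 4. Within groups the pairs differed. For deviations from the group means r was 0.574 for FABP5 with GRN, 0.388 for NR1H3 with SCARB1, -0.152 for FABP5 with SCARB1 and -0.338 for SCARB1 with GRN. LRP1, negative with all 4 over the libraries (r from -0.61 to -0.321), gave 0.719 with FABP5 within groups, where graft day 14 replicates 3 and 4 were higher in both. These values describe 20 libraries that share groups and scaling, and no test was made of them.

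Genes whose pattern was nearest to each member were found by Pearson's r over the same 20 libraries, members left out. For FABP5, 4 of the nearest 5 were CD86, a costimulatory protein of antigen-presenting cells (r = 0.989), NFKBIE, CD1C and CTSS (r = 0.976). For GRN they were CTSZ, cathepsin Z (r = 0.992), GPX1, ATP6V0B, FTL and CSTB (r = 0.985). For NR1H3 they were MOSPD1 (r = 0.971), BOK, COL1A1, IRF8 and OAF (r = 0.956). For SCARB1 they were DTL (r = 0.958), TGFBR2, HSD11B2, ADIPOQ and AMMECR1 (r = 0.943). For LRP1 they were OSBP, the oxysterol binding protein (r = 0.937), HSPA9, SLAIN2, HSPA8 and CHORDC1 (r = 0.908). By Spearman's rho the nearest 5 shared 1 gene with these for FABP5 and LRP1 and 2 for the others.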

How the data were processed

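The authors deposited 1 table of FPKM per transcript for rabbit vessels, 20 paired-end libraries of total RNA, and per the submitters' processing notes used fastp, HISAT2, StringTie, RSEM and DESeq2. Versions and the genome build are not given in the sources used here, and no read counts were used, so depth and counting error are unknown. FPKM of 24964 transcript rows were summed to 23669 genes. A gene was tested where 4 or more libraries had 1 FPKM or more (8657: 6907 with a symbol in the table, 613 named by gene number from a RefSeq table of assembly mOryCun1.1, 1137 without).

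limma fitted a mean per group over all 20 libraries to log2(FPKM + 1), with moderated, trended variances, two-sided tests, Benjamini-Hochberg adjustment over all genes and a threshold of 0.05. Errors are SD for FPKM and limma's SE for log2 changes. The 5 genes, the gene lists and the markers were chosen with earlier results of these data known. Other genes named were up to 4 per list and comparison with the smallest adjusted p, relatives of the 5 genes, and the 5 nearest in pattern; genes named with a change that did not pass, or outside that rule, were chosen after their values were seen. A few genes picked by this rule are not reported here.

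Alternatives were no filter or 5 FPKM, a pseudocount of 0.1, and scaling to TPM, by quantiles or by the median of ratios. Others were library weights, variances without a trend, the highest transcript of each gene only, and a fit of only the groups compared. Samples were changed by omission of the mixture-like libraries, by control day 14 as 1 sample, and by both of these sample changes. The replicate number was also used as a block, and each library was left out in turn. Leaving out graft day 14 replicates 1 and 2 (highest summed FPKM) or control day 30 replicates 2 and 3 (most adipocyte marker RNA) was chosen after seeing the data. Recomputing the gene lists and the other named genes under the sample changes was also chosen then. Vein replicates are numbered as in their titles.

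Simulated data, in which 200 of 8657 genes were changed, were used to test the fit. Where groups had equal spread, 6 of 167 calls at day 14 and 6 of 159 at day 30 were false, and 70% and 65% of the genes given a log2 change of 1 were found. The software was limma 3.58.1 in R 4.3.3, and Python 3.11.15 with pandas 2.3.3, numpy 2.4.6, matplotlib 3.10.9 and scipy 1.17.1.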

Additional observations from a re-analysis of the deposited data

Results flagged for a closer look

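In 5 of 230 groups of 4 libraries looked at, 1 library of a gene lay far from the other 3, where chance gives about 1 in 20. In control day 14, NCOR1 was 2.73 FPKM in replicate 1, TMEM106B was 23.5 FPKM in replicate 1 and PDGFRB was 23.0 FPKM in replicate 3. In graft day 14, STAB1 was 21.3 FPKM in replicate 2 and SORT1 was 7.90 FPKM in replicate 1.

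In 8 of 44 genes looked at, the graft's difference from its control changed between days by limma's test of that change, where 12.9% of all genes tested were called. The 44 include genes picked for a small adjusted p in comparisons of these data, this one among them. Their share can therefore not be set against that of all genes. The difference was smaller at day 30 for GRN (-1.33, adjusted p = 0.0166), APOC1 (-1.43, adjusted p = 0.0252), PLIN2 (-2.34, adjusted p = 0.0419), NCEH1 (-0.71, adjusted p = 0.0326), PLAUR (-2.21, adjusted p = 0.0392), CD14 (-1.71, adjusted p = 0.0323) and IRF8 (-0.999, adjusted p = 0.0366). It was larger for VLDLR (0.96, adjusted p = 0.00264). Of these 8, VLDLR alone also passed without the mixture-like libraries (adjusted p = 0.0339). With control day 14 as 1 sample the 8 had adjusted p from 0.0801 (VLDLR) to 0.34 (PLIN2), and with both changes from 0.426 (VLDLR) to 0.713 (PLIN2). The number of genes called over the whole table went from 1121 to 95 and 7 under these 2 settings.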

How the results depend on the processing

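The rises of FABP5, NR1H3, SCARB1 and GRN in grafts were called on both days under all 36 alternatives. The cause of the other changes was not tested. Where libraries were left out or merged, the number of samples was also smaller. Counts of genes called were as follows where they moved by over 1.5 times. With control day 14 as 1 sample they were 2516 for graft against control at day 14, 95 for the change of that difference between days, 29 between controls and 2051 for vein against controls. With both sample changes they were 1671 and 1757 for graft against control at day 14 and day 30, 7 for the change between days, 88 between grafts, 8 between controls, 1117 for vein against controls, and 2078 and 1286 for graft day 14 and day 30 against vein. Without the mixture-like libraries they were 381 for the change, 424 between grafts, 433 between controls and 1918 for graft day 30 against vein. Library weights, whose fit stopped before converging, gave 5082 at day 30, 4257 for the change, 5299 between grafts, 2963 between controls, and 5853 and 4655 against vein. TPM scaling gave 557 for the change and 828 between grafts, and only the groups compared gave 321 between grafts. Without graft day 14 replicates 1 and 2 the counts were 2047 for the change and 2245 between grafts, and without control day 30 replicates 2 and 3 it was 560 between controls. Leaving out each library in turn gave 918 (without graft day 30 replicate 1) to 1658 (without graft day 14 replicate 1) genes between grafts.

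Of the 5 genes described, the number called for the change between days was 0 with TPM scaling, control day 14 as 1 sample, omission of the mixture-like libraries or both sample changes, 3 with library weights or without graft day 14 replicates 1 and 2, 2 without control day 30 replicates 2 and 3, and 1 to 2 with 1 library left out. Between grafts it was 1 with TPM scaling, quantile normalization, only the groups compared or control day 14 as 1 sample, 0 without the mixture-like libraries or with both sample changes, 4 with library weights or without graft day 14 replicates 1 and 2, and 1 to 2 with 1 library left out. Between controls it was 1 with a pseudocount of 0.1, a filter of 5 FPKM, median-of-ratios or TPM scaling or without graft day 14 replicates 1 and 2, 2 with only the groups compared or library weights, and 0 to 1 with 1 library left out. In vein against controls it was 2 with TPM scaling or without the mixture-like libraries, and 1 with control day 14 as 1 sample or both sample changes.

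Directions turned only where no call stood in the analysis reported. For FABP5 between grafts the change was 0.10 with TPM scaling, 0.0127 with quantile normalization, 0.0398 without the mixture-like libraries and with both sample changes, and -0.35 to 0.15 with 1 library left out. For LRP1 between grafts it was 0.0143 with TPM scaling, 0.0593 without the mixture-like libraries and with both sample changes, and -0.45 to 0.13 with 1 library left out. The change of the graft difference of LRP1 between days was -0.41 with library weights, -0.50 without graft day 14 replicates 1 and 2, and -0.10 to 0.49 with 1 library left out.

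Controls and grafts share replicate numbers. The deviations of same-numbered libraries from their group means correlated at -0.18 to 0.127 over 8 pairs. Differently numbered libraries of a day gave -0.142 to 0.146. These values cannot show whether a graft and a control come from the same animal, so pairing stays unknown. The fit reported did not pair the samples. With the replicate number as a block, 441 genes and 0 of the 5 were called for the change between days, where GRN gave adjusted p = 0.112, and LRP1 gave adjusted p = 0.0511 at day 14. Depth is unknown, and FPKM near 0 may be failed estimates.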
